A study of Mus musculus with 10 samples.

Results

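The 10 genes described here encode the parts of interleukin-6 (IL-6) family signalling through STAT3 that a hepatocyte uses, together with the receptor of interleukin-1. They are the receptors Il6ra, Il6st, Lifr, Osmr and Il1r1, the kinases Jak1 and Tyk2, the transcription factor Stat3, and the induced genes Socs3 and Pim3. They were picked by symbol for their known roles, and all 10 were found among the 23535 loci with values. All 10 also passed the filter on low values that left 10956 loci for testing. Between KO and WT livers, 0 of the 10 were called at an adjusted p of 0.05 in limma, and 0 had an unadjusted p under it, where 0.119% of all tested loci were called (0.0183% higher and 0.1% lower in KO) and 15.2% had such an unadjusted p. The lowest mean relative to WT was that of Il6ra, the IL-6-binding receptor chain, at 61.8% of the WT level.

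KO livers came from mice with both Arid1a alleles floxed and an Alb-cre transgene, whose albumin promoter drives Cre in hepatocytes. Arid1a was not measured by cell type, and whole liver also holds cells that this promoter does not target. WT livers came from mice with the floxed alleles, for which no Cre is listed. Both groups were a mixture of the C57/B6 and 129 strains, 90 days old, and were sampled 40 h after partial hepatectomy, an operation that takes out liver lobes, with 3 RNA sequencing libraries each. The Arid1a protein belongs to SWI/SNF, a complex that remodels chromatin. Another 4 libraries, 2 KO and 2 WT taken before the operation, are not analysed here, so levels at 40 h are given and no response to surgery. Nothing in the labels says that the libraries of a group are separate mice. The p-values therefore measure the spread between these libraries, which may be technical.

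IL-6 binds its receptor chain and then a pair of gp130 proteins, the products of Il6st. Leukaemia inhibitory factor and oncostatin M bring gp130 together with the products of Lifr and Osmr. The receptor-bound kinases JAK1 and TYK2 phosphorylate the receptor tails and STAT3, which enters the nucleus and induces genes that include its own inhibitor Socs3. In the liver this pathway drives the acute-phase response and, in mice, takes part in the priming of hepatocytes during the first hours after hepatectomy.

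STAT proteins bind palindromes of the form TTCNNNGAA, and the sequences that follow show where this pattern stands in genes of the pathway. The pattern reads the same on both strands. It was searched in RefSeq promoters of GRCm38.p6, from 250 bases before to 50 bases after each transcript start. Of 32851 promoters, 8.30% held it. Among the 10 genes, with 12 promoters, Socs3 alone held it, at position -154 from the transcript start. The 250 bases before the Socs3 start are printed with the match in capitals (chr11:117969367-117969616, minus strand).
Socs3: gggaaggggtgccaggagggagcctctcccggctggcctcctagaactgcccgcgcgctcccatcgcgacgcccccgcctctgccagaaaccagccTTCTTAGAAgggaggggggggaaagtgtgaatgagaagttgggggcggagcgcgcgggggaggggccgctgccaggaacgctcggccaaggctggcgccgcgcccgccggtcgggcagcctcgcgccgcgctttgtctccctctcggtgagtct

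Among 26 genes known to be induced by STAT3, 21 had a promoter in the table and 5 of these held the pattern. Among 31 acute-phase protein genes it was 4 of 24, against 9.55% of all genes with a promoter. With a spacer of 4 bases in place of 3, the counts were 4 of 21 and 1 of 24, against 8.01% of all genes. The excess among the STAT3-induced genes was thus not particular to the spacer of 3. The match nearest the transcript start is printed for 7 of these genes, with up to 10 bases on each side and the match in capitals.
Icam1 (chr9:21015888-21015916, plus strand, match at -42): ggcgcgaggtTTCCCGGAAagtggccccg
Steap4 (chr5:7960346-7960374, plus strand, match at -116): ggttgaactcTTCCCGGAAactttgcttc
Bcl6 (chr16:23981353-23981381, minus strand, match at -88): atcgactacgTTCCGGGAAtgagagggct
Apcs (chr1:172895280-172895304, minus strand, match at -244): atcttcTTCTAGGAAagcacagggt
Fga (chr3:83025909-83025937, plus strand, match at -234): aggcccccatTTCCTGGAAtgtagattcc
Fgb (chr3:83050007-83050035, minus strand, match at -162): gactcaatgaTTCGAGGAAccccctgtgt
Itih4 (chr14:30886415-30886443, plus strand, match at -51): aaacctgcatTTCCGAGAActtgcaccag
A match is a description of the letters and not a measured binding site.

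Levels are in FPKM as deposited by the authors, that is, fragments per length of transcript and per library total. They summed to between 430725 and 495209 per KO library and between 409142 and 480544 per WT library, and the read depth is unknown. Arid1a, the deleted gene, was 4.41, 5.57 and 6.15 FPKM in KO and 8.68, 8.45 and 8.49 in WT, lower in every library labelled KO. Its log2 difference was -0.59 (SE 0.15, limma adjusted p = 0.207), so the deleted gene itself was not called. All 10 hepatocyte markers passed the filter, the highest being the albumin gene Alb. KO replicate 2 stood apart. Its 14 mitosis markers summed to 18.8 FPKM, against 366 in KO replicate 1, 604 in KO replicate 3 and 12.5 to 55.1 in the WT libraries. Differences were tested with limma on log2(FPKM + 1) over all 10956 loci, of which 13 were called, 2 higher and 11 lower in KO. The median log2 difference of all tested loci was 0.15. Rescaling the libraries by median of ratios left a median of 0.02, a shift that touches the sign of every small difference.

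The IL-6-binding and gp130 chains were measured at unequal levels. Il6ra (chr3:89869324-89913162, mm10) was 14.9, 7.45 and 18.96 FPKM in KO livers, against 23.0, 25.2 and 18.5 FPKM in WT livers. KO replicate 2 was the lowest of the 6 libraries, and KO replicate 3 lay just above the lowest WT library, so the groups overlapped. The mean was 13.8 ± 5.83 FPKM in KO and 22.3 ± 3.43 in WT (SD, n = 3 each). The log2 difference was -0.73 (95% interval -1.51 to 0.04, limma adjusted p = 0.342), the lowest of the 10 genes and the smallest p. Without KO replicate 2 it was -0.37 (adjusted p = 0.371).

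Il6st (chr13:112464070-112506860), which encodes the signal-transducing chain gp130, was 46.9, 47.9 and 42.9 FPKM in KO and 46.4, 61.2 and 45.4 in WT. The KO libraries lay close together and WT replicate 2 stood above the other 5. The log2 difference was -0.14 (95% interval -0.55 to 0.28, limma adjusted p = 0.719), and it was -0.00088 without WT replicate 2 and -0.21 without WT replicate 3. Il6st exceeded Il6ra in every library. The ratio of Il6ra to Il6st, which does not depend on library scaling, was 0.317, 0.156 and 0.442 in KO and 0.497, 0.412 and 0.407 in WT. The ratios of the groups overlapped (exact two-sided permutation p = 0.3, where the smallest possible is 0.1, and 0.800 after Benjamini-Hochberg adjustment over the 8 ratios computed).

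**Figure D1:**
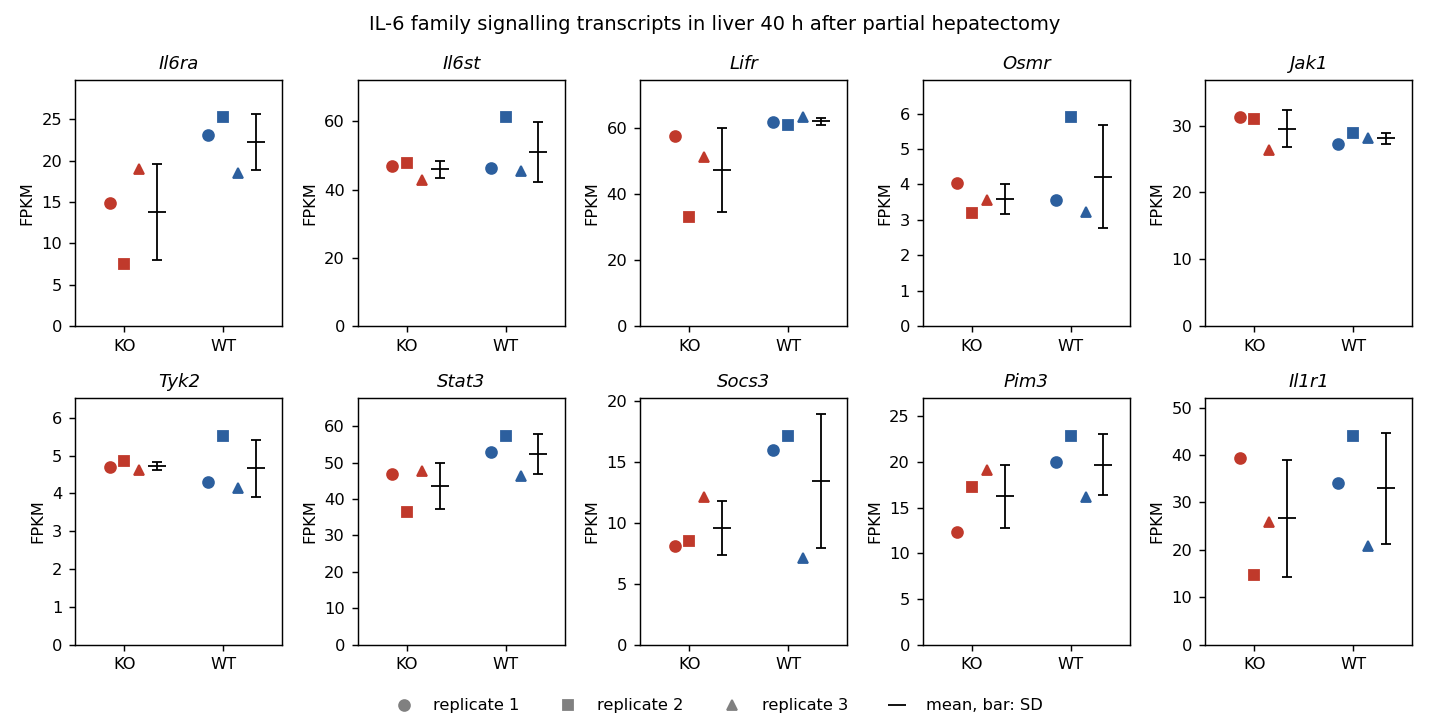
FPKM of each of the 10 genes in the 3 KO libraries (red, left) and the 3 WT libraries (blue, right), with symbols for the replicate, and the mean with its SD in black. Lifr is the gene whose KO and WT libraries do not overlap, and WT replicate 2 is the highest library for 8 of the 10 genes.

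Lifr and Osmr, neighbours on chromosome 15, encode the chains that pair with gp130 for leukaemia inhibitory factor and oncostatin M. Lifr (chr15:7129572-7197489) was 57.6, 33.2 and 51.3 FPKM in KO and 61.9, 61.1 and 63.4 in WT. All 3 KO libraries lay below all 3 WT libraries, and it was the 1 gene of the 10 to separate the groups. Among all tested loci 22.1% separated them, 5.44% with KO lower and 16.7% with KO higher. The SD was 12.7 FPKM in KO, with replicate 2 far below the others, and 1.16 FPKM in WT. The log2 difference of -0.42 did not pass (95% interval -0.96 to 0.12, limma adjusted p = 0.404), and it was -0.19 without KO replicate 2 (adjusted p = 0.539).

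Osmr (chr15:6813577-6874313) had the lowest level of the 10 genes, 4.04, 3.19 and 3.55 FPKM in KO and 3.55, 5.90 and 3.21 in WT. Both groups covered the same range apart from WT replicate 2. Its log2 difference was -0.15 (95% interval -0.67 to 0.36, limma adjusted p = 0.746), and it was 0.06 without WT replicate 2, -0.09 without KO replicate 2, -0.23 without WT replicate 1 and -0.29 without WT replicate 3. Per length of transcript, Lifr exceeded Osmr by 14.3, 10.4 and 14.5 times in KO and by 17.4, 10.4 and 19.7 times in WT.

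Il1r1 (chr1:40225080-40316177) encodes the signalling receptor of interleukin-1, which acts through NF-kappaB beside the IL-6 pathway. It was 39.3, 14.7 and 26.0 FPKM in KO and 34.1, 44.1 and 20.8 in WT. Both groups spread widely and overlapped, with KO replicate 2 lowest and WT replicate 2 highest. The log2 difference of -0.34 had the widest 95% interval of the 10, from -1.30 to 0.62 (limma adjusted p = 0.698). Without KO replicate 2 it was 0.02, without WT replicate 2 -0.10, without KO replicate 1 -0.66 and without WT replicate 3 -0.63.

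The kinases had the differences nearest to 0 of the 10 genes. Jak1 (chr4:101151974-101265282), the main kinase of gp130 receptors, was 31.2, 31.0 and 26.3 FPKM in KO and 27.2, 28.9 and 28.2 in WT. Tyk2 (chr9:21104068-21131275), the second kinase of the family here, was 4.69, 4.85 and 4.63 FPKM in KO and 4.30, 5.53 and 4.16 in WT. The libraries of the groups overlapped for both genes. The log2 difference was 0.07 for Jak1 (95% interval -0.28 to 0.41) and 0.02 for Tyk2 (-0.32 to 0.37), with limma adjusted p of 0.840 and 0.949. These intervals were the narrowest of the 10 genes, and both differences turned negative after rescaling, to -0.09 and -0.10. Jak1 overlaps Raver2 on the opposite strand, and Raver2 was 0.252 to 0.561 FPKM across the 6 libraries. No source used here states whether the counting used strand.

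Stat3 (chr11:100886810-100939511), the transcription factor that carries the signal, was 46.9, 36.4 and 47.7 FPKM in KO and 53.1, 57.4 and 46.5 in WT. KO replicates 1 and 3 lay just above the lowest WT library and KO replicate 2 below the rest. Its mean was 43.7 ± 6.31 FPKM in KO and 52.3 ± 5.52 in WT (SD, n = 3 each). The log2 difference was -0.26 (95% interval -0.69 to 0.16, limma adjusted p = 0.496), and -0.14 without KO replicate 2.

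**Figure D2:**
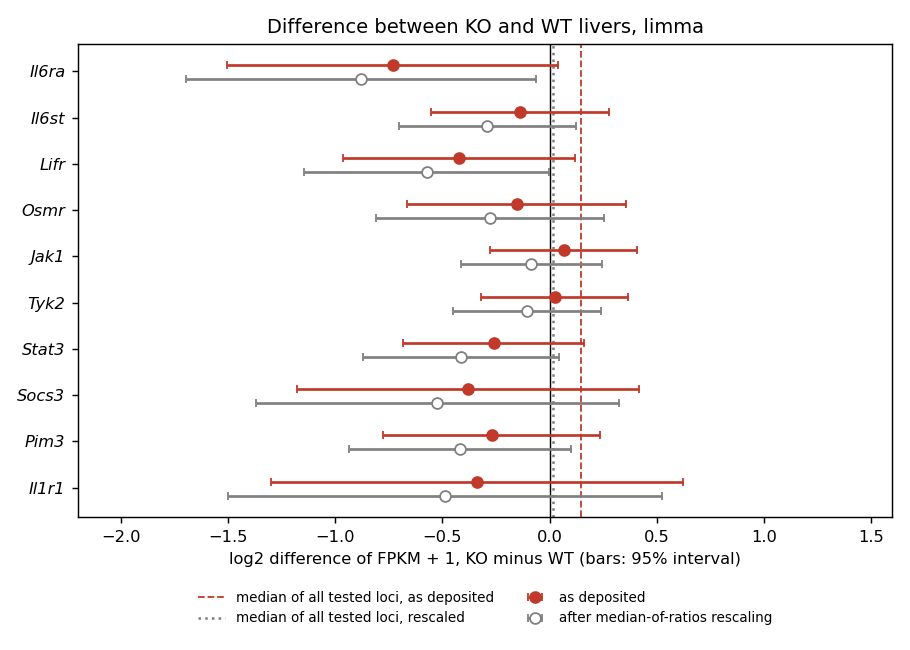
Log2 difference of FPKM + 1, KO minus WT, for the 10 genes, as deposited (filled) and after median-of-ratios rescaling (open), with 95% intervals from limma; vertical lines mark 0 and the medians of all tested loci. As deposited, all 10 points lie left of the median of all tested loci and every interval crosses 0.

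Socs3 and Pim3 were picked as genes that the pathway induces, and the activity of STAT3 itself was not measured. Socs3 (chr11:117966087-117969366), the inhibitor that STAT3 induces and that binds gp130 and JAK kinases, was 8.10, 8.46 and 12.1 FPKM in KO and 15.97, 17.1 and 7.07 in WT. WT replicates 1 and 2 were the highest of the 6 libraries and WT replicate 3 the lowest. The mean was 9.55 ± 2.20 FPKM in KO and 13.4 ± 5.504 in WT (SD, n = 3 each). The log2 difference was -0.38 (95% interval -1.18 to 0.42, limma adjusted p = 0.595), and it depended on single WT libraries. It was -0.75 without WT replicate 3 (adjusted p = 0.274), -0.22 without WT replicate 1 and -0.17 without WT replicate 2. Relative to Stat3, Socs3 was 0.173, 0.233 and 0.253 in KO and 0.301, 0.298 and 0.152 in WT, and the groups again overlapped.

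Pim3 (chr15:88862194-88865726), a serine/threonine kinase gene of the Pim family, was 12.3, 17.3 and 19.1 FPKM in KO and 19.9, 22.9 and 16.2 in WT. The groups overlapped, with KO replicate 1 lowest and WT replicate 2 highest. Its log2 difference was -0.27 (95% interval -0.78 to 0.24, limma adjusted p = 0.549), and it was -0.097 without KO replicate 1 and -0.16 without WT replicate 2. Pim1, the family member best known as a STAT3 target, was chosen after its values were seen. It was 6.85, 3.28 and 9.18 FPKM in KO and 8.40, 3.81 and 3.84 in WT, lower than Pim3 in every library.

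The order of levels ran Lifr, Il6st, Stat3, Jak1, Il1r1, Pim3, Il6ra, Socs3, Tyk2 and Osmr in KO. Lifr at 47.4, Il6st at 45.9 and Stat3 at 43.7 FPKM overlapped between libraries, and so did the run from Jak1 to Socs3, each with its neighbour. Stat3 lay above Jak1, Socs3 above Tyk2, and Tyk2 above Osmr in all KO libraries. In WT the order was Lifr, Stat3, Il6st, Il1r1, Jak1, Il6ra, Pim3, Socs3, Tyk2 and Osmr, with Lifr above Stat3 in every library. Il6st and Lifr stood at the 90.2 and 91.2 percentile of mean level among tested loci, and Osmr at the 30.9 percentile.

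The differences had 1 sign more often than the table as a whole. Of the 10 genes, 8 had a log2 difference below 0, against 30.3% of all tested loci, and after median-of-ratios rescaling all 10 did, against 47.5%. The 10 genes were measured in the same 6 libraries and are not independent of each other. WT replicate 2 was the highest of the 6 libraries for 8 of the 10 genes, the exceptions being Lifr and Jak1, whereas it was highest for 10.4% of tested loci. After rescaling it was highest for 9 of the 10 genes and 16.6% of tested loci. KO replicate 2 was the lowest library for Il6ra, Lifr, Osmr, Stat3 and Il1r1, 5 of 10, against 12.7% of tested loci. After rescaling it was lowest for 5 of 10 and 21.5% of tested loci. Both patterns were noticed after the values were seen. The median log2 difference of the 10 was -0.27, and -0.15 without KO replicate 2, where that of all loci was 0.12.

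After rescaling, the KO libraries lay entirely below the WT libraries for Il6ra, Il6st, Lifr and Stat3, 4 of 10, where 9.79% of all tested loci did so. Il6ra was then 14.3, 6.81 and 18.2 in KO and 24.96, 26.7 and 18.8 in WT, in rescaled FPKM. Il6st was 45.0, 43.8 and 41.3 in KO and 50.3, 64.8 and 46.1 in WT, on the same scale. The margin was narrow for both, and for Stat3, with at most 45.9 in KO and at least 47.2 in WT. None of the 4 passed. Their limma adjusted p was 0.389 for Il6ra, 0.549 for Il6st, 0.413 for Lifr and 0.453 for Stat3.

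**Figure D3:**
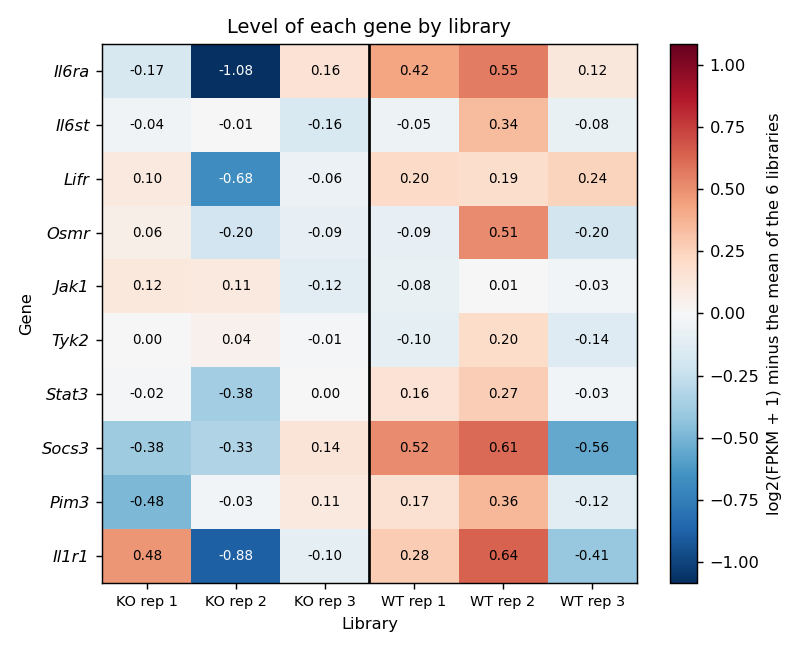
Level of each gene (rows) in each library (columns, KO left of the line and WT right), as log2(FPKM + 1) minus the mean of the 6 libraries, red above and blue below that mean. The column of KO replicate 2 holds the lowest cells, -1.08 for Il6ra and -0.88 for Il1r1, and the column of WT replicate 2 has no cell below 0.

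By a fixed measure, the root-mean-square difference of centred log2(FPKM + 1) over the 6 libraries, the 3 tested genes with profiles most like that of Socs3 were 1810032O08Rik (0.139), Rhoc (0.156) and Col6a3 (0.158). Rhoc, which encodes a small GTPase, was 5.46, 5.86 and 7.10 FPKM in KO and 8.62, 8.75 and 4.13 in WT. Col6a3, which encodes a collagen VI chain, was 1.25, 0.917 and 1.57 FPKM in KO and 1.97, 2.33 and 0.558 in WT. As with Socs3, WT replicate 2 was the highest library and WT replicate 3 the lowest for Rhoc and Col6a3. In whole liver, fewer cells of a type and less RNA per cell cannot be told apart. The 15 stellate cell and fibroblast markers summed to 170, 209 and 137 FPKM in KO and 194, 206 and 188 in WT. These sums were highest in KO replicate 2 and lowest in KO replicate 3, unlike Socs3. The median log2 difference of this list was -0.13, against 0.15 for all tested loci, with 4 markers above 0 and 11 below. Of the 15 markers, 5 were highest in WT replicate 2, against 10.4% of all tested loci. The part of these cells in the Socs3 values was not tested.

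Outside the 10 genes, 8 lists of pathway genes gave 121 further tested genes, and limma called 0 of them. At an unadjusted p under 0.05 there were 22, or 18.2%, of which 13 were higher and 9 lower in KO, against 15.2% of all tested loci. The smallest adjusted p was 0.128. The genes named first in each list were among its 4 with the smallest p, and the others were named after their values were seen or for a printed promoter match.

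Ligands of the family were close to the floor of the table. Of 11, Ctf1 alone reached the mean of 1 FPKM needed for testing. Ctf1, which encodes the gp130 ligand cardiotrophin-1, was 2.505, 5.20 and 3.35 FPKM in KO and 1.32, 2.59 and 1.80 in WT. The lowest KO library was below the highest WT library, and the log2 difference of 0.67 did not pass (limma adjusted p = 0.313). Il6 itself was listed at 0 in KO replicates 1 and 3 and WT replicate 1, and reached at most 0.292 FPKM, in KO replicate 2. Osm was listed at 0 in all KO libraries and in WT replicate 2, and Lif did not exceed 0.0821 FPKM. Values this close to 0 give no comparison of these ligands.

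Of 11 other tested cytokine receptors, 0 were called, 1 was higher and 1 lower at an unadjusted p under 0.05, and the median log2 difference was 0.00. For 36.4% of the 11 the groups did not overlap (2 higher and 2 lower in KO), against 22.1% of all tested loci. Tnfrsf1a, the main receptor of tumour necrosis factor, was 29.7, 34.6 and 26.3 FPKM in KO and 55.6, 48.4 and 48.3 in WT. Every KO library lay below every WT library, with a log2 difference of -0.74 (SE 0.17, limma adjusted p = 0.179). This difference was -0.84 without KO replicate 2 (limma adjusted p = 0.0594), a setting that called 211 loci in all, against 13 as deposited. After median-of-ratios rescaling the limma adjusted p was 0.119. The Tnfrsf1a promoter is among those of 6 of 15 genes of this list that hold TTCNNNGAA, against 9.55% of all genes with a promoter. Tnfrsf1b, also among the 6, was higher in every KO library. Il11ra1, the interleukin-11 receptor chain that also pairs with gp130, was 12.5, 16.2 and 15.2 FPKM in KO and 9.30, 10.2 and 9.47 in WT. Its libraries did not overlap, with KO higher (log2 difference 0.55, SE 0.15, limma adjusted p = 0.216), and mice carry near-identical copies of this gene, so its reads are uncertain. Ifngr1, a chain of the interferon-gamma receptor, averaged 7.45 ± 1.73 FPKM in KO and 10.6 ± 2.15 in WT. Tnfrsf1b, the second receptor of tumour necrosis factor, averaged 7.39 ± 1.92 in KO and 5.48 ± 0.627 in WT (SD, n = 3 each).

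Of the 7 other JAK and STAT genes tested, 0 were called, with 2 higher and 1 lower at an unadjusted p under 0.05 and a median log2 difference of 0.19. Stat2, a STAT of interferon signalling, was 17.4, 17.96 and 20.1 FPKM in KO and 12.1, 13.5 and 12.0 in WT. Every KO library lay above every WT library, with a log2 difference of 0.53 (limma adjusted p = 0.212). Stat5a, which acts in growth hormone signalling, was 2.81, 2.84 and 2.11 in KO and 4.53, 3.46 and 4.48 in WT, the opposite order, and shares much of its sequence with its neighbour Stat5b. Stat6 averaged 8.12 ± 1.99 FPKM in KO and 10.05 ± 1.26 in WT (SD, n = 3 each).

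**Figure D4:**
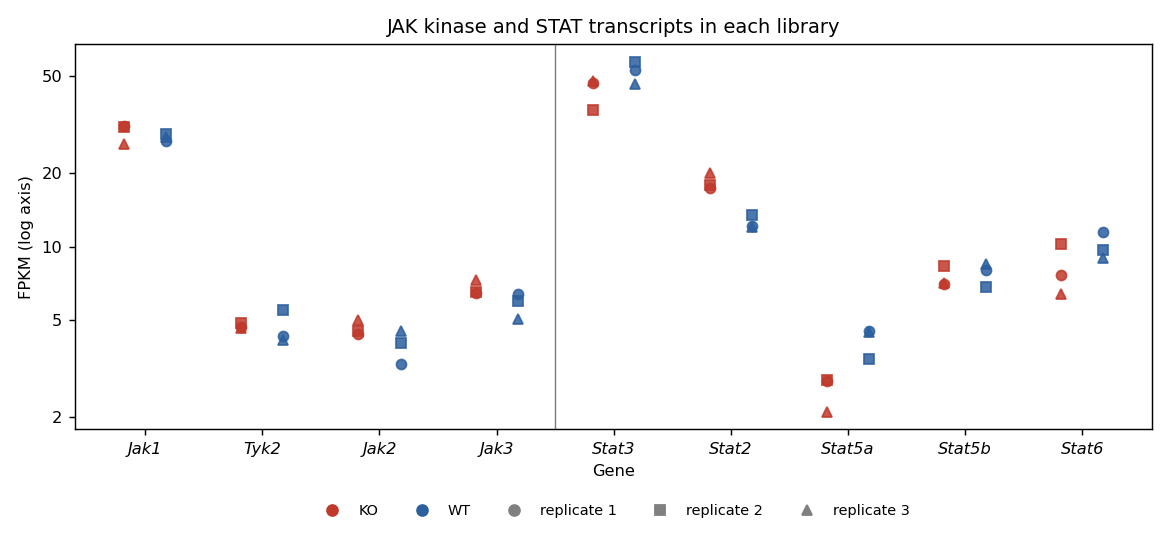
FPKM on a log axis of the JAK kinase genes (left of the line) and STAT genes (right) in each KO (red, left of each pair) and WT (blue) library, with symbols for the replicate. Stat2 lies higher in all KO libraries and Stat5a lower, while Jak1, Tyk2 and Stat3 overlap between the groups.

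Among the other negative regulators 15 were tested. Of these, 0 were called, 2 were higher and 0 lower at an unadjusted p under 0.05, and the median log2 difference was 0.05. Pias4, a SUMO ligase that restrains STAT proteins, averaged 6.93 ± 1.14 FPKM in KO and 4.88 ± 0.468 in WT (SD, n = 3 each). The related Pias1 averaged 5.39 ± 0.337 in KO and 4.18 ± 0.663 in WT. Ptpn6, a phosphatase of blood cells that acts on JAK kinases, averaged 9.78 ± 2.46 in KO and 6.70 ± 0.380 in WT. Ptpn1, which dephosphorylates JAK2 and TYK2, ran the other way, with 8.15 ± 0.714 FPKM in KO and 10.96 ± 1.83 in WT. For all 4 the libraries did not overlap, and the limma adjusted p lay between 0.302 and 0.365. These 4 had the smallest p of the list, in which 7 of 15 genes did not overlap, 6 of them higher in KO, against 22.1% of all tested loci and 16.7% with KO higher. Macrophages also express Ptpn6, and the 16 Kupffer cell and macrophage markers summed to 147 to 241 FPKM in KO and 133 to 206 in WT, and 0 of the 16 were at 0 in all libraries. Marco, a scavenger receptor of macrophages that was picked out once its values were known, had 16.9, 27.6 and 11.8 FPKM in KO and 9.84, 8.99 and 5.11 in WT (limma adjusted p = 0.264), with the 6 libraries in the same order as for Ptpn6. It was the 1 of 13 tested markers of its list whose groups did not overlap, 7.69% against 22.1% of all tested loci. The list median was 0.15, as for all tested loci, with 10 markers above 0 and 3 below. The sums, 241, 193 and 147 FPKM in KO and 164, 206 and 133 in WT, did not follow the order of Ptpn6. The part of these cells in the Ptpn6 values was not tested.

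Genes induced by STAT3 had differences of both signs, 14 above 0 and 11 below. Of 25 tested, 0 were called, 3 were higher and 2 lower at an unadjusted p under 0.05, and the median log2 difference was 0.01, or -0.14 after rescaling. Cdkn1a, the cell cycle inhibitor p21, which p53 also induces, was 43.1, 40.2 and 49.6 FPKM in KO and 8.25, 27.8 and 16.3 in WT (log2 difference 1.44, limma adjusted p = 0.220). Myc, the growth regulator, was 2.68, 9.53 and 4.40 in KO and 1.37, 1.88 and 2.04 in WT (1.11, adjusted p = 0.282, and 0.70 without KO replicate 2). Both had all KO libraries above all WT libraries.

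Il1rn, the interleukin-1 receptor antagonist, was 4.56, 0.945 and 0.866 FPKM in KO and 6.52, 5.49 and 5.02 in WT (log2 difference -1.29, limma adjusted p = 0.275). Fgl1, a secreted fibrinogen-like protein of hepatocytes, was 1402, 1248 and 1061 FPKM in KO and 2201, 1700 and 1819 in WT (log2 difference -0.62, limma adjusted p = 0.289). Both lay lower in every KO library. Hamp, the hepcidin gene, whose promoter holds the pattern, was 1839, 1759 and 2376 FPKM in KO and 616, 1307 and 2134 in WT, and Steap4, which also carries it, was 299, 70.4 and 214 in KO and 251, 172 and 151 in WT. Both were named after their values were seen, and for both the groups overlapped. So did the groups for Icam1, an adhesion molecule, with 7.08 ± 0.322 FPKM in KO and 8.93 ± 2.09 in WT (SD, n = 3 each), named for its printed match after the values were seen.

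The list of acute-phase protein genes, a class tied to the hepatocyte response to IL-6, had the lowest median of the 8 lists. It also holds constitutive genes such as Saa4, so its median is not a measure of IL-6 output. All 31 were tested and 0 called. At an unadjusted p under 0.05, 2 were higher and 5 lower in KO, and the median log2 difference was -0.34, with 22 of 31 below 0. For 7 of the 31, or 22.6%, every KO library lay below every WT library, against 5.44% of all tested loci. For 3 of the 31 every KO library lay above, against 16.7% of all tested loci. In either direction it was 32.3%, against 22.1%. A2m, alpha-2-macroglobulin, was 0.439 and 0.0950 FPKM in KO replicates 1 and 3 and listed at 0 in replicate 2, against 5.98, 3.73 and 2.003 in WT (limma adjusted p = 0.128). Saa4, a constitutive serum amyloid A, was 70.7, 21.1 and 84.3 FPKM in KO and 328, 153 and 158 in WT (adjusted p = 0.234), and Orm3, an orosomucoid gene with near-identical neighbours, averaged 1.64 ± 0.829 in KO and 6.51 ± 3.32 in WT.

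Of the 4 acute-phase genes with a printed match, Apcs, the gene of serum amyloid P, was 1151, 762 and 305 FPKM in KO and 1882, 1447 and 1254 in WT (limma adjusted p = 0.314). All KO libraries lay below all WT libraries, and Apcs was named after its values were seen. Fga and Fgb, for fibrinogen chains, and Itih4, for an inter-alpha-trypsin inhibitor chain, overlapped between the groups, and all 3 were named for their matches after their values were seen. Fgb averaged 6269 ± 1586 FPKM in KO and 7557 ± 706 in WT (SD, n = 3 each).

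Serpina3n, a protease inhibitor with near-identical relatives beside it, ran against the list with 1945, 1993 and 1759 FPKM in KO and 1062, 471 and 554 in WT (log2 difference 1.54, limma adjusted p = 0.171). The strongly inducible Saa1 and Saa2, near-identical to each other and named after their values were seen, overlapped between the groups. Saa1 was 1759, 4945 and 2269 FPKM in KO and 6229, 2191 and 3034 in WT. WT replicate 1 and KO replicate 2 were the high libraries. Il6ra (25.2 and 23.0 FPKM) and Socs3 (17.1 and 15.97 FPKM) were highest in WT replicate 2 and next in WT replicate 1. In KO replicate 2, Il6ra was 7.45 and Socs3 8.46 FPKM.

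**Figure D5:**
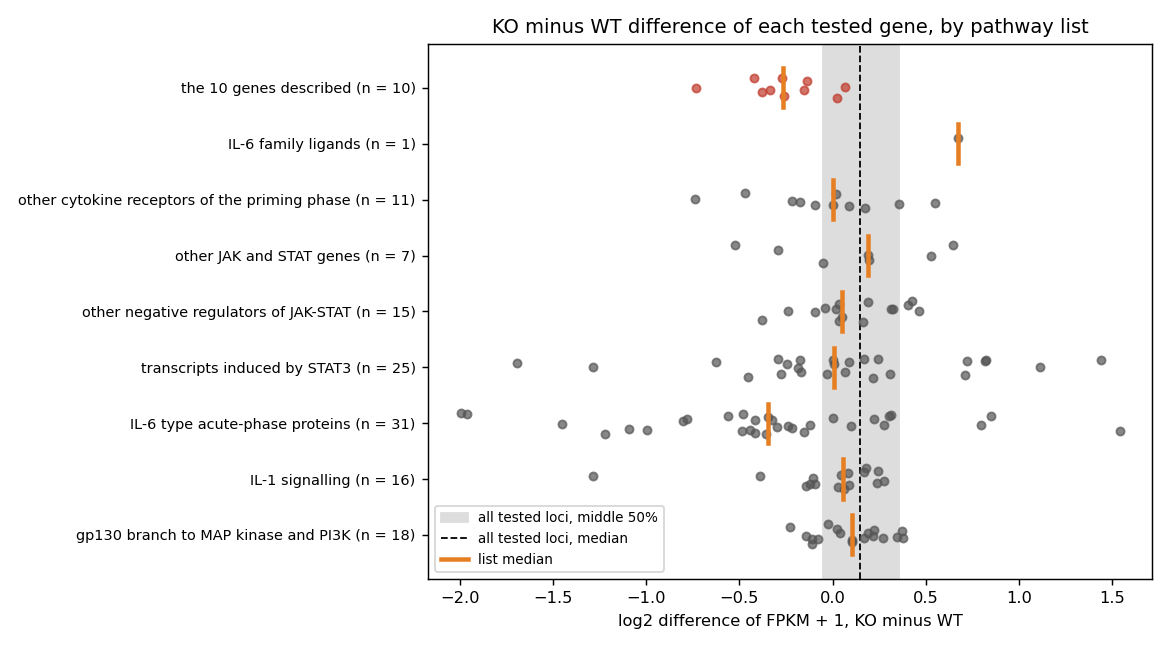
Log2 difference of FPKM + 1, KO minus WT, of each tested gene (points) by list, with the list median in orange, and the median and middle 50% of all tested loci as the dashed line and grey band. The medians of the 10 genes (-0.27) and of the acute-phase list (-0.34) lie left of the grey band, and no point is a called gene.

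In the interleukin-1 pathway and the branch from gp130 to MAP kinases the list medians lay within the middle 50% of all tested loci, -0.05 to 0.36. Of 16 tested interleukin-1 signalling genes 0 were called, 0 were higher and 1 lower at an unadjusted p under 0.05, and the median log2 difference was 0.05. After Il1rn, the smallest p belonged to Rela, the NF-kappaB subunit, with 18.02 ± 1.78 FPKM in KO and 14.8 ± 2.37 in WT. Il1a, an interleukin-1 ligand, averaged 2.13 ± 0.726 in KO and 1.61 ± 0.231 in WT, and the NF-kappaB cofactor Nfkbiz averaged 6.25 ± 2.99 in KO and 8.12 ± 2.59 in WT (SD, n = 3 each). The log2 difference of Nfkbiz was -0.39, and -0.0088 without KO replicate 2.

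The branch from gp130 to MAP kinase and PI3 kinase had 18 tested genes, with 0 called, 2 higher and 0 lower at an unadjusted p under 0.05, and a median log2 difference of 0.10. Nras, a Ras GTPase, averaged 6.94 ± 0.564 FPKM in KO and 5.12 ± 0.654 in WT (SD, n = 3 each). Every KO library lay above every WT library, with a limma adjusted p of 0.306. The adaptor gene Grb2 averaged 19.95 ± 3.74 in KO and 15.1 ± 2.28 in WT.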

How the data were processed

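The table holds FPKM per gene locus and library as deposited by the authors. The submitters' processing notes name TopHat, edgeR, mm9 and mm10 without roles, and the loci lie on mm10. The file is described as filtered, by a criterion not given in the sources used here. Of 23847 loci, 312 carried LOWDATA in place of values in all 6 libraries and were left out, and values of 0, listed as 0.001, were set to 0. Read numbers are unknown, so no counting interval is given. FPKM is relative to each library's total.

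Loci with a mean of at least 1 FPKM over the 6 libraries were tested on log2(FPKM + 1), which understates the differences of low genes. The limma model (version 3.58.1, in R 4.3.3) held genotype alone and a mean-variance trend, and its p-values were adjusted over all tested loci by Benjamini-Hochberg. The fit was tested on simulated data. Alternatives were 2 rescalings, a pseudocount of 0.1, no filter, a minimum of 5 FPKM, no trend, a replicate block, and each library left out. Single ratios had an exact permutation test over 20 assignments. Groups of 3 limit the precision of every value.

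The 10 genes, the lists and the rule for named genes were chosen with earlier results of these data known. Named were the 10 genes, Arid1a, the 4 smallest p per pathway list, the highest hepatocyte marker, and the 3 profiles nearest Socs3. Genes with a printed promoter match, and those said to be so, were named after their values were seen. Symbols were matched by name, and 3 through RefSeq synonyms. Promoter sequences are from RefSeq, GRCm38.p6. Protein sequences were not used here. A few genes and sequences that these rules name are not reported here.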

Additional observations from a re-analysis of the deposited data

How the results depend on the processing

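The number of the 10 genes called was 0 under every alternative run (8 genes tested at the minimum of 5 FPKM). At an unadjusted p under 0.05 there were 0 of 10 as deposited, 2 after either rescaling, and at most 1 with a library left out. Over all loci, 13 were called, against 0 with no filter (2111 at an unadjusted p under 0.05), 5 at a minimum of 5 FPKM and 47 with the replicate block. With 1 library left out the count ranged from 0 to 211. It was 211 without KO replicate 2, 1 without KO replicate 3, 0 without WT replicate 1 (940 unadjusted), 2 without WT replicate 2 and 3 without WT replicate 3. The cause was not tested. Same-numbered libraries correlated at -0.08, 0.16 and 0.16 in their deviations from the group means, so the numbers were not taken as pairs. KO replicate 1 correlated best with WT replicate 3, at 0.17. Directions reversed for Jak1 (-0.086 after median-of-ratios rescaling, -0.091 after quantile normalization) and Tyk2 (-0.10 after median-of-ratios rescaling, -0.14 after quantile normalization). The first rescaling takes the median of all loci to 0.02, against 0.15 as deposited. With 1 library left out the log2 difference ranged from -0.039 to 0.13 for Tyk2, from -0.29 to 0.064 for Osmr and from -0.66 to 0.018 for Il1r1, and the other 7 genes kept their sign, although Il6st was at -0.00088 without WT replicate 2. The count of genes whose groups do not overlap was 1 of 10 as deposited, against 22.1% of all tested loci, 5.44% with KO lower. It was 1 of 10 without KO replicate 2, against 10.6% of all tested loci with KO lower. After median-of-ratios rescaling it was 4 of 10, against 17.7%, or 9.79% with KO lower. All of these genes were lower in KO. With a spacer of 4 bases in place of 3, the promoter pattern stood in 0 of the 10 genes, against 8.01% of all genes with a promoter.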

Other observations

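Cntf, the gene of the gp130 ligand ciliary neurotrophic factor, was 0.583, 0.275 and 0.586 FPKM in KO and listed at 0 in all 3 WT libraries. It was under the filter and was not tested. Nnmt, a methyltransferase gene that STAT3 induces, was 76.0, 9.18 and 108 FPKM in KO and 251, 74.99 and 149 in WT, with KO replicate 2 lowest as for Il6ra, Lifr and Stat3 (limma adjusted p = 0.403). Gadd45g, a stress response gene, was 65.9, 45.9 and 68.6 FPKM in KO and 18.9, 49.96 and 38.0 in WT (limma adjusted p = 0.342). All 3 genes were named after their values were seen.

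Markers of other liver cells were present in both groups. The summed FPKM of the sinusoidal endothelial list was 93.1 to 143 in KO and 94.7 to 124 in WT, that of the cholangiocyte list 20.3 to 32.1 in KO and 15.97 to 25.9 in WT, and that of the neutrophil list 15.03 to 30.2 in KO and 12.1 to 37.5 in WT. The lists of T, NK and B cells and of mesothelium stayed under 4 FPKM in every library. The hepatocyte list summed to between 31659 and 40697 FPKM in KO and between 34357 and 40219 in WT. KO replicate 2 had the lowest of these 6 hepatocyte sums, which Alb dominates, with 16226 FPKM in KO replicate 2, 29106 in KO replicate 1 and 20933 in KO replicate 3, against 22616, 29437 and 25141 in WT. The other 9 hepatocyte markers summed to 11591, 15433 and 12690 FPKM in KO and 11741, 10783 and 10917 in WT, highest in KO replicate 2. That library was also highest for the endothelial list and lowest for the list of T, NK and B cells.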
